A study of Mus musculus with 6 samples.

Results

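The cell cycle and DNA replication genes described here are 36 genes chosen by symbol: the D, E, A and B cyclins, their kinases and inhibitors, RB and E2F factors, the MCM helicase and its loaders, the replication clamp and nucleotide enzymes, and mitotic kinases and markers. All 36 have a row in the deposited table of 24940 genes. Each was read in 6 RNA sequencing libraries of primary hepatic stellate cells, liver pericytes that store vitamin A, isolated from wild-type female C57BL/6JBomTac mice. After 2 days in culture, 3 libraries' cells received 5 µM forskolin and 3 received the same volume of the solvent DMSO, both added to the existing medium, for 3 h. Forskolin activates adenylyl cyclase and so raises cAMP. The replicates of both groups carry the letters A, B and C, and whether these mark separate animals, pools or isolations is not given in the sources used here, so a p-value here measures the spread among these 6 libraries alone, and that spread may be technical.

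A quiescent cell enters the cycle when D cyclins and their kinases CDK4 and CDK6 phosphorylate RB, which frees E2F factors to switch on the genes of DNA synthesis. Cyclin E and cyclin A with CDK2 then drive replication from origins on which CDC6 and CDT1 have loaded the MCM helicase, and cyclin B with CDK1 drives mitosis. Stellate cells are quiescent in the healthy liver and start to divide as they turn into myofibroblasts in injury or on culture plastic. cAMP is known to slow the G1 phase in many mesenchymal cells.

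None of the tested members passed the test between forskolin and DMSO. By edgeR's quasi-likelihood test on all 12233 tested genes, 0 of 34 tested members had a Benjamini-Hochberg adjusted p under 0.05, while 2.80% of all tested genes did; at that share 0.951 of the 34 would be called, so the count of 0 is near the background. DESeq2 called 2 members and limma-voom 1, all lower with forskolin, where these tools called 4.52% and 3.94% of all genes. With the letter as a block, 1 member was called (Cdk6, adjusted p = 0.034), where that fit called 5.31% of all genes. This block was tried because same-letter libraries deviated together. A pairing is not established, since forskolin A correlated more with DMSO B than with DMSO A. Of the 34, 4 (11.8%) had an unadjusted p under 0.05 (Cdk6, Cdk2, E2f3 and Ccnb2), near the 12.1% of all tested genes. The members' median log2 change was −0.053 beside 0.0050 for all tested genes, with 15 members above 0 and 19 below. Ccnb1 and Bub1, with 14 counts each over the 6 libraries, were too low to be tested. Nr4a1, an immediate target of cAMP signalling, stood at 42.6, 41.3 and 41.0 CPM (counts scaled to library size) in DMSO A, B and C and at 434, 413 and 517 CPM with forskolin, with every forskolin library above every DMSO library. Crem, whose short products repress cAMP-responsive genes, had a log2 change of 3.53 ± 0.16.

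The promoters of Cdk6, Cdk2, E2f3 and Ccnb2 are shown because these members had the lowest p-values, and that of Mcm5 because it alone, of the 29 members with an entry, holds the full cAMP response element, CRE, that CREB binds. Each line is the 250 bases before the annotated start site from RefSeq on GRCm38.p6, in the gene's direction: chr5:3343643-3343892 on the plus strand for Cdk6, chr10:128705052-128705301 on the minus strand for Cdk2, chr13:29986064-29986313 on the minus strand for E2f3, chr9:70421555-70421804 on the minus strand for Ccnb2, and chr8:75109259-75109508 on the plus strand for Mcm5. Capitals mark 4 motifs searched on both strands: the CRE (TGACGTCA), the cell cycle homology region bound by the DREAM complex, called CHR (TTTGAA or TTTAAA), the CCAAT box bound by NF-Y, and E2F letters (TTCCCGC or TTGGCGC or TTCGCGC or TTGCCGC). E2F letters may overlap each other, as they do in Mcm5.
Cdk6: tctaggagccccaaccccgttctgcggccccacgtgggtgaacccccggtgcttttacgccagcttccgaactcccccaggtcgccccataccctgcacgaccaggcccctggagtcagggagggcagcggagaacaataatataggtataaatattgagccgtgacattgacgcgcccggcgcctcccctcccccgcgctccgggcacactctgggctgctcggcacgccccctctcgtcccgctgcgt
Cdk2: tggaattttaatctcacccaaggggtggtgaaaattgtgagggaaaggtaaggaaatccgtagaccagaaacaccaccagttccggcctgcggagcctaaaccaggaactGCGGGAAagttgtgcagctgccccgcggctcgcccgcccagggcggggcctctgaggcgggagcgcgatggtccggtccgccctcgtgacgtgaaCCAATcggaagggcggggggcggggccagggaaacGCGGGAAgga
E2f3: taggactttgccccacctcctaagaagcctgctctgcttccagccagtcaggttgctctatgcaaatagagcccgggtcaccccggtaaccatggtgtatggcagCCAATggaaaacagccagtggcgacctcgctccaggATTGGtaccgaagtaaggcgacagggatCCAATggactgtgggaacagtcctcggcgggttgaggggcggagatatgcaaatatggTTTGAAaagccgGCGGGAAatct
Ccnb2: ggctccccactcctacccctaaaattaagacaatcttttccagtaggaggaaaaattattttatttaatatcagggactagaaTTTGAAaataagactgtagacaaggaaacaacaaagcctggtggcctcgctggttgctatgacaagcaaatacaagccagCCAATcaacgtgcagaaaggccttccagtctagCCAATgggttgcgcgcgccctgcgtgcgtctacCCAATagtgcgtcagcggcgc
Mcm5: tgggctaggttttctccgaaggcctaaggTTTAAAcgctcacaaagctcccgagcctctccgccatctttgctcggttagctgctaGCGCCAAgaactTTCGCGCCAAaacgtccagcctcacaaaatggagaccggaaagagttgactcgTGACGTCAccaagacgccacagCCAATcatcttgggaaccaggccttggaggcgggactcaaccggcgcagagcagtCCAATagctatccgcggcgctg

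Of the 36 members, 29 had a promoter entry. Ccnd1, Ccnd2, Ccne2, Ccna2, Rb1, Mcm4 and Aurkb had none, so whether their promoters hold a CRE or another of these motifs was not read. The CRE was in 1 of 29 (3.45%) against 1.55% of all 32851 promoter windows, and in Mcm5 it began 99 bases before the start site. The CCAAT box was in all 9 mitotic members with an entry, against 33.8% of all promoters, and the CHR letters in 7 of those 9, against 25.2%. E2F letters were in 12 of 29 members (41.4%) against 7.89% of all promoters. The Cdk6 window held none of the 4 motifs. Ccnb2 held 3 CCAAT boxes and 1 CHR match, E2f3 held 3 CCAAT boxes with 1 CHR and 1 E2F match, and Cdk2 held 1 CCAAT box and 2 E2F matches. These are matches of letters, which describe the windows and were not measured as binding.

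**Figure D1:**
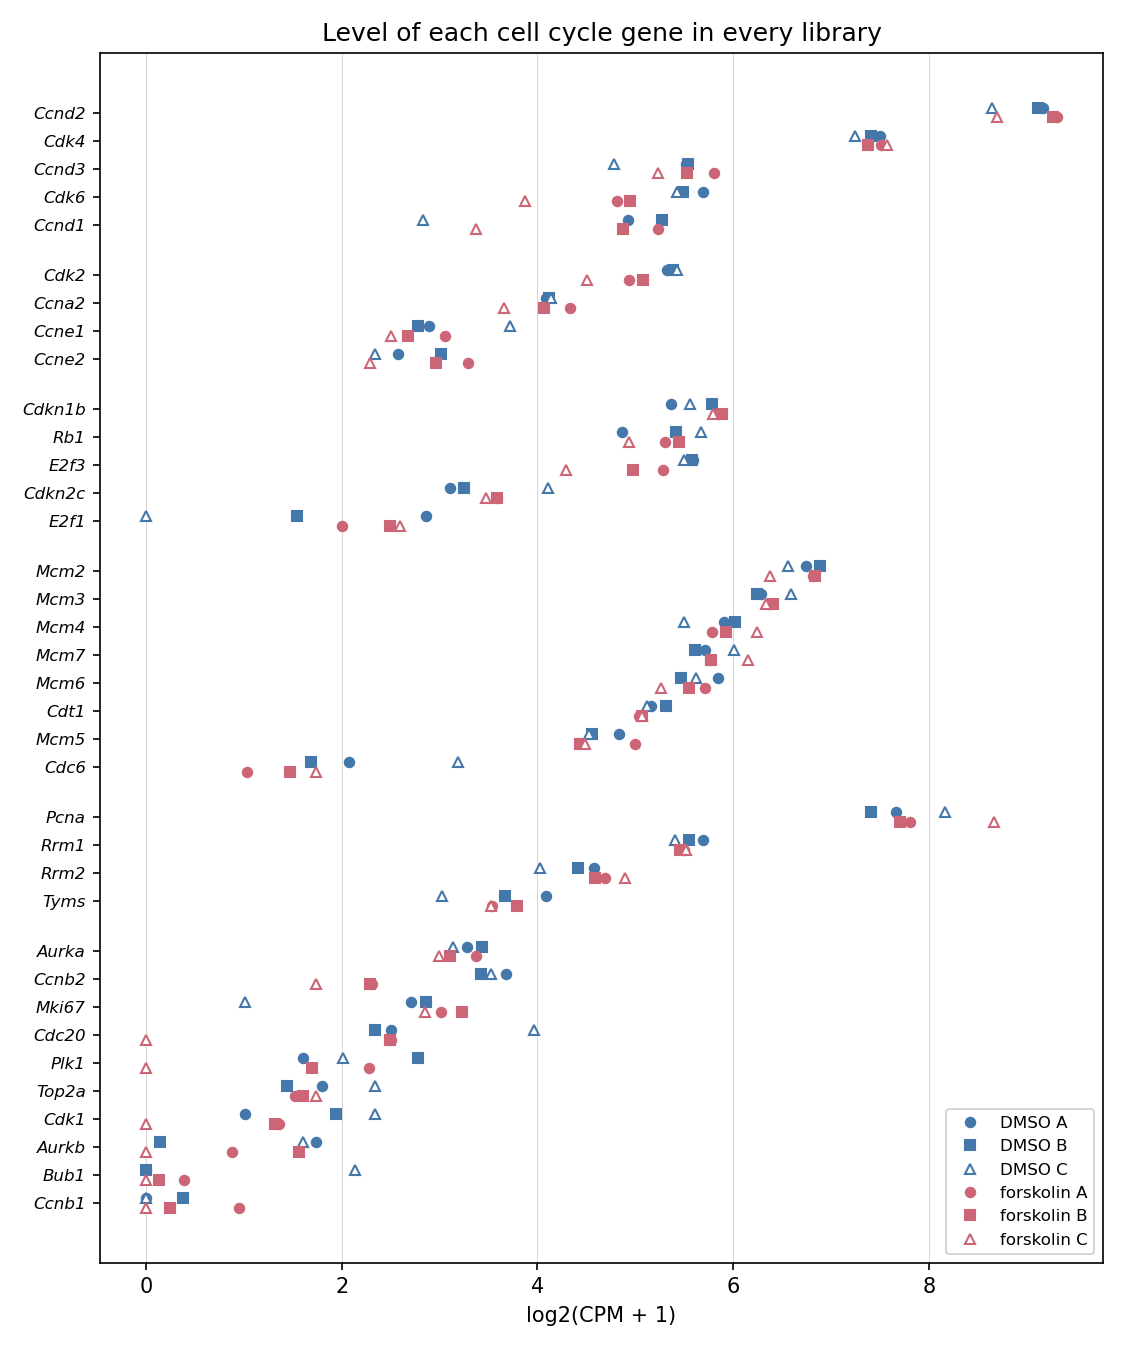
Level of each of the 36 members in every library, as log2(CPM + 1), in role groups from D cyclins at the top to mitotic genes at the bottom; blue is DMSO, red forskolin, circles A, squares B and open triangles C. Ccnd2, Cdk4 and Pcna lie highest, Aurka has the highest mean of the mitotic genes over the 6 libraries (8.39 CPM), and the triangles of Ccnd1, Ccnd2 and Ccnd3 lie left of the A and B libraries in both groups.

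Of the G1 genes, Ccnd2 and Cdk4 were the most abundant. Cyclin D2 was the main D cyclin message: per kilobase of the listed transcript, Ccnd2 stood at 88.4 CPM in DMSO, Ccnd3 at 19.7 and Ccnd1 at 6.43. Ccnd2 made up 74.5% to 82.2% of the D cyclin sum per kilobase in the DMSO libraries and 74.6% to 77.9% with forskolin. Ccnd2 was at 574, 556 and 399.9 CPM in DMSO A, B and C and at 634, 618 and 414 CPM with forskolin. The groups overlapped (log2 change 0.12 ± 0.19 SE, 95% interval −0.31 to 0.56, adjusted p = 0.899), and the change was −0.022 without DMSO C. Without both C libraries it was 0.14, and the log2 ratio within A, B and C was 0.14, 0.15 and 0.050. Ccnd1, the cyclin most tied to growth factor signalling, was at 29.5, 37.6 and 6.10 CPM in DMSO and 36.5, 28.4 and 9.33 CPM with forskolin. Here too the groups overlapped, and the low values were both C libraries. Ccnd3 ranged from 26.4 to 45.4 CPM in DMSO and from 36.5 to 54.8 CPM with forskolin.

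Among the kinases that D cyclins activate, Cdk4 and Cdk6 differed in level and in how their libraries were ordered. Cdk4 was at 167 ± 14.9 CPM in DMSO against 179 ± 12.6 CPM after forskolin (mean ± SD, n = 3), and its interval of −0.15 to 0.34 on the log2 scale leaves out a 2-fold change. Per kilobase, Cdk4 exceeded Cdk6 by 29.0- to 31.6-fold in the DMSO libraries and by 45.3- to 114-fold in the forskolin libraries. Cdk6 (chromosome 5, 3343893 to 3531005, mm10, plus strand) was at 50.8, 43.8 and 42.0 CPM in DMSO A, B and C and at 27.1, 29.7 and 13.6 CPM with forskolin. Every forskolin value lay below every DMSO value, a pattern seen in 5 of 34 members and in 9.46% of all tested genes. The log2 change was −0.91 ± 0.26 (95% interval −1.49 to −0.33), with an unadjusted p = 0.00562 and an adjusted p = 0.127 in edgeR's fit. Within the letters, the log2 ratio was −0.91 for A, −0.56 for B and −1.63 for C.

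The Cdk6 call depended on the model. Blocking on the replicate letter, Cdk6 passed (log2 change −0.95, adjusted p = 0.034). It also passed by DESeq2 (0.0353), by limma-voom (0.0496), with no filter on low counts (0.0038, where 3.31% of 18738 genes were called) and without both C libraries (log2 change −0.73, adjusted p = 0.00487, where 9.76% of all genes were called). Over its 15 alternatives the adjusted p ran from 0.0038 to 0.409 and the log2 change from −1.10 to −0.68. In bulk samples, fewer cells of a kind that express a gene and less of its RNA per cell cannot be told apart.

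Cdk2 (chromosome 10, 128697939 to 128705051, minus strand), the kinase of S phase entry, showed the same ordering of libraries. It was at 39.1, 40.8 and 42.0 CPM in DMSO and at 29.7, 32.7 and 21.8 CPM with forskolin, with no overlap. The log2 change was −0.51 ± 0.20 (interval −0.95 to −0.07, adjusted p = 0.305). Its cyclin partners gave no such separation. Ccna2 (cyclin A2) was at 16.0, 16.4 and 16.6 CPM in DMSO and 19.2, 15.8 and 11.7 CPM with forskolin, so the forskolin values lay on both sides of the DMSO values. The cyclin E messages were low, with Ccne1 between 5.87 and 12.2 CPM in DMSO and 4.66 and 7.29 CPM with forskolin, and Ccne2 between 4.07 and 7.09 and between 3.89 and 8.75 CPM.

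E2f3, an activator of the E2F family, was the third member of this kind. E2f3 (chromosome 13, 29906575 to 29986063, minus strand) was at 47.3, 47.0 and 44.1 CPM in DMSO and at 37.9, 30.5 and 18.7 CPM with forskolin. Again no forskolin value reached the DMSO range, and forskolin C was the lowest library (log2 change −0.63 ± 0.23, interval −1.16 to −0.11, adjusted p = 0.283). E2f1, another activator, was at 6.27, 1.92 and 0 CPM in DMSO and at 3.02, 4.65 and 5.05 CPM with forskolin, so its groups overlapped. Rb1, the restraint on E2F, was at 40.0 ± 11.1 CPM in DMSO against 36.9 ± 6.67 CPM after forskolin (n = 3 each). Of the inhibitors of cyclin-dependent kinases, Cdkn1b (p27) was at 40.3, 54.2 and 46.1 CPM in DMSO and at 56.7, 58.2 and 54.4 CPM with forskolin. All of its forskolin values lay just above the DMSO values, yet the log2 change of 0.27 ± 0.16 had an adjusted p = 0.598. Cdkn2c (p18, an inhibitor of CDK4 and CDK6) was at 10.8 ± 4.77 and 10.7 ± 0.546 CPM.

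**Figure D2:**
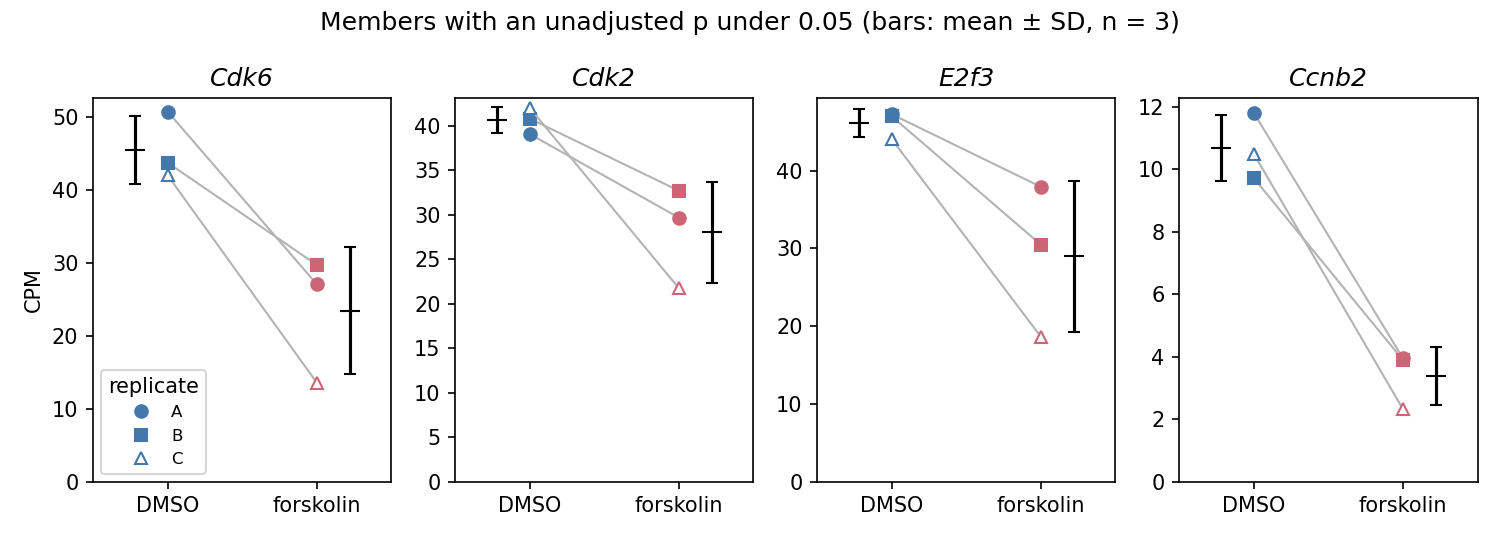
CPM of Cdk6, Cdk2, E2f3 and Ccnb2 in each library, with grey lines joining libraries of the same letter and bars for the mean ± SD of 3 libraries. The 4 were picked for an unadjusted p under 0.05 in edgeR's fit of these same libraries, so a separation of the groups goes with the choice. In each panel all forskolin values lie below all DMSO values and forskolin C is the lowest point. None of the 4 passed the adjusted threshold over all genes.

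The MCM helicase genes hardly differed between groups, and their means in DMSO ran from 24.0 CPM for Mcm5 to 106 CPM for Mcm2. Summed over the 6 MCM subunits and the loaders Cdc6 and Cdt1, the level was 415, 411 and 409 CPM in DMSO A, B and C and 417, 411 and 401 CPM with forskolin. Mcm2, the most abundant, was at 106, 118 and 93.5 CPM in DMSO and 112, 113 and 82.4 CPM with forskolin. Its values overlapped, and its log2 change of −0.038 ± 0.15 (interval −0.37 to 0.30) turned to 0.085 without forskolin C, 0.049 without DMSO B and 0.0013 without both C libraries. Mcm3 and Mcm4 had log2 changes of 0.0052 ± 0.13 and 0.15 ± 0.18, Mcm6 and Mcm7 of −0.12 ± 0.18 and 0.12 ± 0.17. Mcm5, whose promoter carries the CRE shown above, was at 27.4, 22.5 and 22.0 CPM in DMSO and at 30.8, 20.6 and 21.4 CPM with forskolin. Its interval of −0.50 to 0.55 leaves out a 2-fold change in either direction.

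Of the loaders, Cdt1 lay within the range of the MCM subunits and Cdc6 below it. Cdt1 was at 35.8 ± 2.68 CPM in DMSO against 32.4 ± 0.412 CPM after forskolin (n = 3), separated by a narrow margin and with a log2 change of −0.15 ± 0.17. Cdc6, the ATPase that brings MCM to origins, was scarce: it had 22, 22 and 24 counts in DMSO A, B and C and 10, 19 and 6 with forskolin. In CPM this was 3.21, 2.23 and 8.13 against 1.04, 1.77 and 2.33, so the groups overlapped only through DMSO B and forskolin C. The log2 change of −1.40 ± 0.81 had an interval of −3.19 to 0.39, too wide to tell a large change from none at this depth (adjusted p = 0.579). Without DMSO C, its highest library, the log2 change was −0.71.

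Pcna, the sliding clamp of DNA polymerases, was the member with the highest level per kilobase, at 175 CPM for DMSO and 222 CPM for forskolin. In plain CPM it was at 201, 169 and 287 in DMSO A, B and C and at 222, 207 and 406 with forskolin. The C library was the highest of each group, and without forskolin C the log2 change of 0.34 ± 0.26 (adjusted p = 0.728) became −0.010. That refit keeps the high DMSO C. Without both C libraries the log2 change was 0.21, and within A, B and C the log2 ratio was 0.14, 0.29 and 0.50. With the letter as a block in edgeR, Pcna had a log2 change of 0.31 and did not pass (adjusted p = 0.0711). Rrm2, the regulated subunit of ribonucleotide reductase, was at 22.9, 20.3 and 15.2 CPM in DMSO and at 24.9, 23.1 and 28.8 CPM with forskolin. These ranges did not overlap, but the log2 change of 0.37 ± 0.23 did not pass (adjusted p = 0.634). Its partner Rrm1 was at 46.0 ± 4.71 and 43.9 ± 0.904 CPM, and the thymidylate synthase gene Tyms at 11.6 ± 4.46 and 11.3 ± 1.31 CPM.

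Mitotic genes were scarce in both groups. Their median level per kilobase in DMSO was 0.844 CPM, against 19.7 for D cyclins with CDK4 and CDK6 and 16.0 for the MCM group. The proliferation marker Mki67 was at 5.54, 6.28 and 1.02 CPM in DMSO and at 7.08, 8.36 and 6.22 CPM with forskolin, where the 1.02 CPM of DMSO C rests on 3 counts. Top2a, which untangles chromosomes, stood at 2.76 ± 1.2 and 2.08 ± 0.231 CPM, and Aurka, a spindle pole kinase, at 8.79 ± 1.02 and 8.0 ± 1.23 CPM. In forskolin C, 6 members had no count (Ccnb1, Cdk1, Aurkb, Plk1, Bub1 and Cdc20), which allows up to 1.17 CPM in that shallow library (3 counts on the scale of the printed CPM). Cdk1, the mitotic kinase, had 7, 28 and 12 counts in DMSO and 15, 16 and 0 with forskolin. Plk1, a kinase of mitotic entry, ranged from 2.04 to 5.87 CPM in DMSO and from 0 to 3.85 CPM with forskolin. Aurkb, the kinase of the chromosomal passenger complex, had 23 counts over the DMSO and 29 over the forskolin libraries. Cdc20, the activator of the anaphase-promoting complex, was at 4.67, 4.05 and 14.6 CPM in DMSO and at 4.69, 4.65 and 0 CPM with forskolin. The A and B libraries of both groups lay together and both C libraries lay apart, on opposite sides (log2 change −1.13 ± 0.85, adjusted p = 0.716).

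Ccnb2, cyclin B2, stood apart from the other mitotic members. Ccnb2 (chromosome 9, 70407689 to 70421554, minus strand) had 81, 96 and 31 counts in DMSO A, B and C and 38, 42 and 6 with forskolin, or 11.8, 9.72 and 10.5 CPM against 3.96, 3.90 and 2.33 CPM. The highest forskolin value was below 4 CPM and the lowest DMSO value above 9, a log2 change of −1.60 ± 0.41 (interval −2.50 to −0.69, unadjusted p = 0.00282, adjusted p = 0.0825). The ratios within A, B and C were −1.58, −1.32 and −2.17 on the log2 scale. DESeq2 called it (adjusted p = 0.00733), as did the fit without both C libraries (log2 change −1.45, adjusted p = 0.0226), while the other 13 of 15 alternatives did not, with adjusted p up to 0.335. A transcribed processed pseudogene, Ccnb2-ps on chromosome 8, carries the same gene's name in GENCODE M21 and has no row of its own, so how reads of the pair were assigned is uncertain. Its B-type sister Ccnb1 had 3 counts in DMSO and 11 with forskolin. Summed over all 10 mitotic members, of which Ccnb2 is a large part, the level was 38.7, 40.7 and 50.5 CPM in DMSO and 34.5, 32.5 and 17.9 CPM with forskolin. These sums do not describe the mitotic members one by one. Of the 8 tested, only Ccnb2 had values that did not overlap between the groups, and 6 members had no count in forskolin C.

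**Figure D3:**
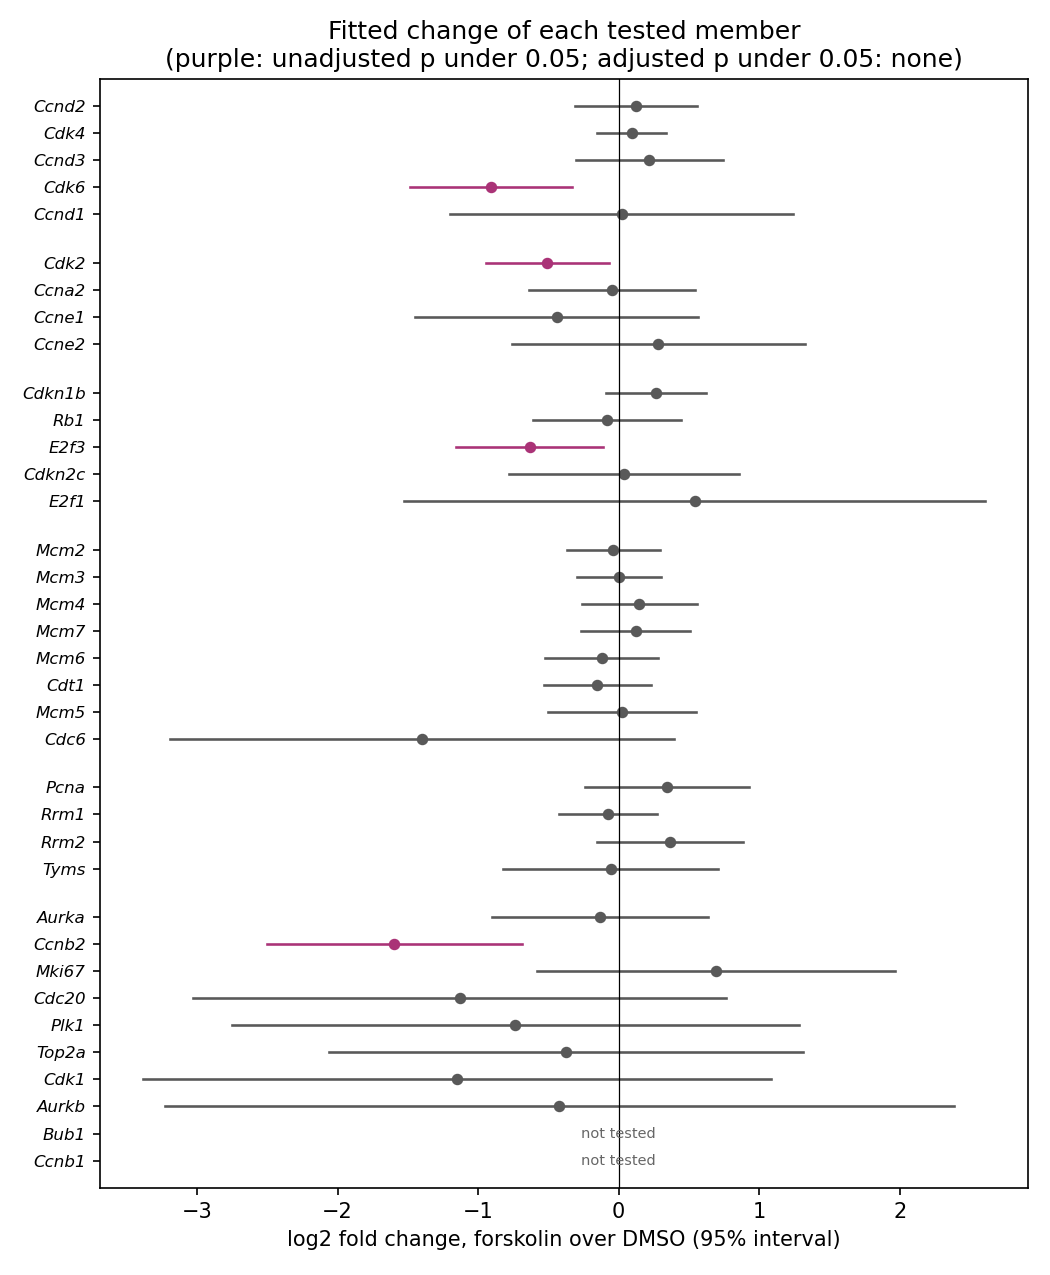
Fitted log2 fold change of forskolin over DMSO with its 95% interval for the 34 tested members, in the role groups and order of the plot of levels; purple marks an unadjusted p under 0.05. Only Cdk6, Cdk2, E2f3 and Ccnb2 have intervals that leave out 0, all on the lower side, and intervals widen towards the mitotic genes, which had the fewest counts.

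The intervals show how far the 6 libraries could resolve the members. For 20 of 34 (58.8%) the 95% interval lay within a 2-fold change either way, close to the 62.4% of all tested genes. By role, this held for 7 of 8 genes of the MCM group and all 4 of the clamp and nucleotide group, but for 1 of 8 tested mitotic genes. Values of 7 of 34 members did not overlap between the groups, 5 lower and 2 higher with forskolin, a share of 20.6% beside 20.2% of all tested genes. The members' share was thus near the background.

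Replicate letter C set several members further apart than forskolin did. Both C libraries lay outside the range of the A and B libraries for 8 of 34 members (23.5%, against 31.6% of all tested genes). They were higher for Pcna and Mcm7 and lower for Ccnd1, Ccnd2, Ccnd3, Ccne2, Mcm2 and Tyms. For Ccnd1, C was below the mean of A and B by 2.46 on the log2 scale in DMSO and by 1.80 with forskolin; for Pcna it was above by 0.63 and 0.92. Both C libraries were also the shallowest, at 2770628 and 3025990 counts, while the other 4 held 6753746 to 10607997. Markers of activated stellate cells (7 of 7 detected) moved with the letter: their summed level was 414 CPM in DMSO C and 434 CPM in forskolin C, against 593 to 747 CPM in the A and B libraries. Within each letter this sum was also higher with forskolin, at 747 against 733 CPM in A and 732 against 593 CPM in B, though none of these markers passed the test. The parts of depth and of these markers in the members' values were not tested.

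**Figure D4:**
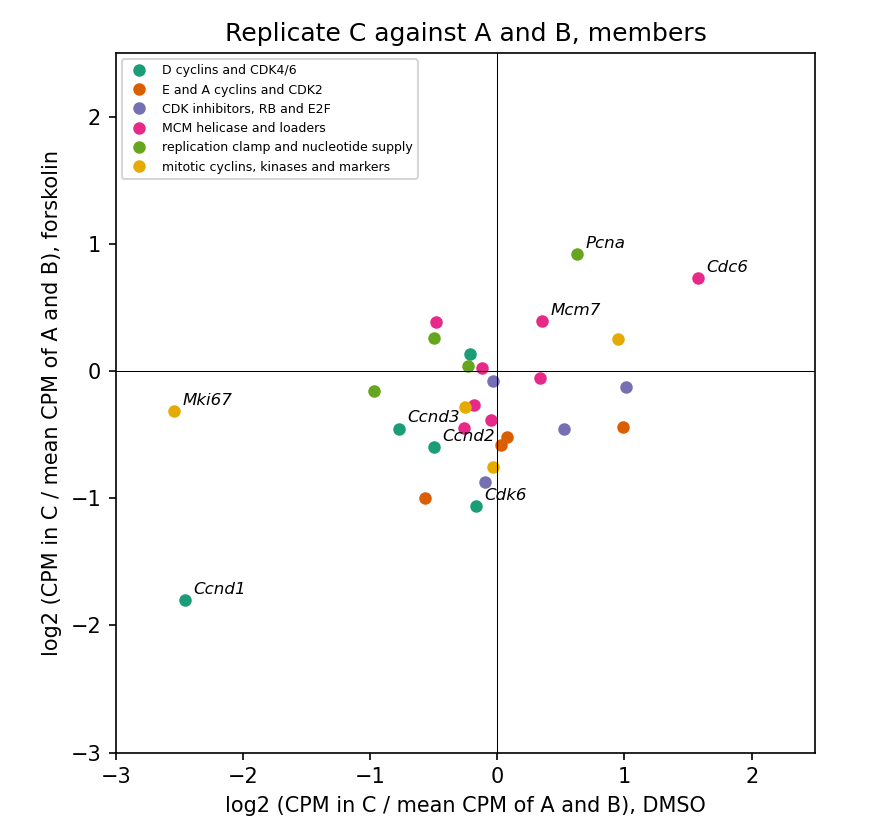
Log2 ratio of the CPM in library C to the mean of A and B in the DMSO group (horizontal) and the forskolin group (vertical) for 29 tested members with a count in both C libraries; colours are role groups. The D cyclins lie in the lower left, with Ccnd1 farthest out, and Pcna in the upper right; 14 members lie below 0 on both axes and 4 above.

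Stellate cell identity and other cell types were read from marker lists. Summed stellate markers, all 10 detected, ran from 1224 to 1410 CPM in DMSO and from 1298 to 1552 CPM with forskolin, higher with forskolin within each letter. Of these 10, 2 passed the test, both higher with forskolin: Hgf (log2 change 1.71 ± 0.20, edgeR adjusted p = 0.000909) and Hand2 (1.03 ± 0.19, edgeR adjusted p = 0.0152). From DMSO C to forskolin C, Hgf went from 16.3 to 69.2 and Hand2 from 35.2 to 90.2 TMM-scaled CPM. Together they rose by more than the sum did in letter C, so there the sum does not show a rise of all 10 markers. In A and B the sum rose by more than these 2 genes did, from 1408 to 1552 CPM and from 1410 to 1552 CPM. Hgf went from 26.5 to 85.0 in A and from 26.0 to 74.7 in B, and Hand2 from 60.1 to 108 and from 45.4 to 90.9. Markers of hepatocytes (Apoc3 at 0) reached at most 18.4 CPM, of endothelial cells 9.58, of lymphocytes (Ms4a1 and Nkg7 at 0) 6.28 and of mesothelial cells (Upk3b at 0) 3.77 CPM in any library. Macrophage markers, with Marco at 0 among 8, were at 14.1 to 18.5 CPM with forskolin against 18.7 to 21.8 CPM in DMSO. The ranges were separated by a narrow margin, and none of these markers passed the test. Cholangiocyte markers (Krt7 at 0 among 5) were at 11.9 to 19.8 CPM in DMSO and 8.66 to 43.9 CPM with forskolin. Whether such cells contribute to the members' values was not tested.

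Other genes of the cycle, in 6 lists without any member, gave no call either. Of 109 genes listed, 99 were tested and 0 passed by edgeR, where 2.80% of all tested genes did, and 4 (4.04%) had an unadjusted p under 0.05, against 12.1% of all tested genes. DESeq2 and limma-voom called 0 of them. Their median log2 change was −0.056. Among inhibitors, pocket proteins and E2F factors (13 of 15 tested), the p53 target Cdkn1a (p21) was the most abundant, at 796, 656 and 1193 CPM in DMSO and 743, 727 and 1408 CPM with forskolin. Both C libraries were the highest, as for Pcna, and the log2 change of 0.12 ± 0.29 did not pass (adjusted p = 0.945). E2f4, a repressor of the family, was at 103 ± 6.88 CPM against 88.7 ± 2.79 CPM after forskolin (log2 change −0.22 ± 0.11, adjusted p = 0.52). Of the 7 genes of MuvB, B-MYB and FOXM1, Rbbp4, a histone-binding subunit, was at 316 ± 25.7 and 345 ± 68.1 CPM, and Lin54, the subunit that contacts CHR elements, at 61.3 ± 9.06 and 68.9 ± 8.33 CPM. These 2 were higher with forskolin, but the list's median log2 change was −0.31, with 3 genes above 0 and 4 below. Its lowest was Lin9 (−1.18 ± 0.67, edgeR adjusted p = 0.573), which had 0 counts in forskolin C.

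The remaining lists held to the same picture in their most abundant genes. Among kinase activators and cyclin turnover genes (14 of 15 tested), the CDK-activating kinase Cdk7 was at 82.0 ± 4.83 CPM in DMSO against 71.2 ± 8.62 CPM after forskolin, and the ubiquitin ligase subunit Fbxw7 at 59.4 ± 3.87 and 58.6 ± 10.8 CPM. The origin recognition genes Orc2 and Orc4, from a list of 15 with all tested, had log2 changes of −0.050 ± 0.13 and −0.10 ± 0.19. Of 25 fork and nucleotide genes, the clamp loader Rfc1 was at a log2 change of −0.056 ± 0.13, and the single-strand binding protein Rpa1 at 155 ± 13.8 CPM against 187 ± 8.0 CPM (0.27 ± 0.11, adjusted p = 0.327). Of 25 tested spindle and condensin genes, Bub3, a checkpoint protein, had a log2 change of −0.23 ± 0.18 and the condensin subunit Smc4 one of 0.11 ± 0.19. None of these passed.

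The genomic spans of some members, introns included, overlap the span of a gene on the other strand. The NEBNext Ultra kit keeps no strand information, so reads of a stretch that is exon in both genes are impossible to assign. There the parts of the pair cannot be told apart. How much of each overlap is exon was not checked. Ccnd1 shares 818 bases with Oraov1 (39.3 CPM in DMSO), Ccnd3 358 with Bysl (126 CPM), Ccne2 1852 with Ints8 (59.7 CPM), Ccna2 863 with Exosc9 (68.5 CPM) and Cdc20 52 with Elovl1 (79.1 CPM). Each of these 5 neighbours stood above the member it overlaps. Rb1 shares 2468 bases with Lpar6 (21.5 CPM) and Ccnd2 1423 with 9330179D12Rik (0.30 CPM), both lower than the member. Cdk6, Cdk2, E2f3 and Ccnb2 overlap no other row of the table. Pcna, Tyms, Ccnd3 and Ccnb1 also have named processed pseudogenes, and the division of reads between these copies is uncertain.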

How the data were processed

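Polyadenylated RNA of 6 libraries (3 forskolin, 3 DMSO) was sequenced. The submitters' processing notes name STAR, HOMER and mm10, without versions; how reads were counted is not stated there. The deposited values are the authors' estimated counts over the exons of each gene, unadjusted and in steps of 0.5, per the file headers; they were rounded to whole numbers (75.8% already were). Depth per column ran from 2770628 to 10607997 counts, and 3 counts served as the floor; floors cover counting error only.

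Genes were kept by filterByExpr, scaled by TMM and tested with edgeR 4.0.16 in R 4.3.3 (quasi-likelihood, robust), with Benjamini-Hochberg adjustment over 12233 genes and a threshold of 0.05. CPM use TMM-scaled library sizes, except for summed cell type markers, which use column totals. SEs are the absolute log2 change over the square root of F, and 95% intervals use the t quantile. Alternatives were other scalings and filters, DESeq2 1.42.0, limma 3.58.1 (voom), a replicate block, and libraries left out. The fits were tested on simulated data. These held no effect of the replicate letter, so that test does not cover deviations shared by same-letter libraries.

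Same-letter libraries deviated together (r = 0.171, 0.25 and 0.305 over 8994 genes of at least 10 CPM, genes not being independent). The letter was therefore used as a block in an alternative fit, although forskolin A correlated more with DMSO B (0.22). Named genes were all members, with every library's value for those at an unadjusted p under 0.05 or with the highest level or largest change in their role; further values were added after they were seen. Each pathway list gave its called genes or its 2 most abundant. Of the pathway genes, 1 with an unadjusted p under 0.05 is not reported here. Members and lists were chosen with earlier results of these data known.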

Additional observations from a re-analysis of the deposited data

How the results depend on the processing

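Members called rose from 0 to 1 with no filter, limma-voom or the replicate block (Cdk6 each time) and to 2 with DESeq2 or without both C libraries (Cdk6 and Ccnb2); the count was 0 in the other 10 alternatives, among them each library left out in turn (0 to 0). Pathway genes called stayed at 0 in all 15. The total of 342 called genes became 620 with no filter, 553 with DESeq2, 649 with the replicate block and 1229 without both C libraries, and ran from 185 to 485 with 1 library left out (189 and 207 without forskolin A or B, 203 and 185 without DMSO A or B). The replicate block changed no other call among the 23 genes followed singly. Of 345 refits of these 23 genes, 322 kept direction and side of the threshold, 7 passed it (5 for Cdk6, 2 for Ccnb2) and 16 changed sign, in 11 genes that none of the fits called; the causes were not tested. With single libraries left out, their log2 changes ran from −0.022 to 0.30 for Ccnd2, −0.11 to 0.085 for Mcm2 (0.049 without DMSO B), −0.010 to 0.57 for Pcna, −0.25 to 0.40 for Cdkn1a (−0.052 without DMSO B), −0.035 to 0.23 for Rbbp4, −0.16 to 0.092 for Fbxw7, −0.27 to 0.060 for Orc4, −0.14 to 0.010 for Orc2, −0.13 to 0.055 for Rfc1 and −0.14 to 0.27 for Smc4. Without both C libraries they were 0.0013 for Mcm2, 0.081 for Bub3 and −0.11 for Smc4, and by limma-voom −0.026 for Smc4. Depth limits the mitotic genes most: 26 of 36 members had at least 100 counts in each group, and 6 had none in forskolin C.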

Other observations

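Outside the members, 4 genes of the cycle lists had an unadjusted p under 0.05 without passing the adjusted threshold; Rpa1 was described above, and Incenp and Pole are named after their values were seen. Incenp, the scaffold of the chromosomal passenger complex, was at 23.3, 21.9 and 35.9 CPM in DMSO and 15.4, 18.2 and 11.3 CPM with forskolin, with no overlap (log2 change −0.80 ± 0.28, edgeR adjusted p = 0.247). Pole, the catalytic subunit of the leading-strand polymerase, was at 7.15, 6.99 and 12.2 CPM against 2.08, 3.16 and 5.83 CPM, again with no overlap (−1.31 ± 0.54, edgeR adjusted p = 0.35).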
